A study of Daphnia magna with 48 samples.

Results

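A set of 60 genes of the water flea Daphnia magna that stood lower in animals exposed to a mixture of copper and arsenic for 2 days than in the other animals sampled that day was followed over treatments and days. RNA of whole bodies was sequenced in 48 libraries, 4 for each of 4 treatments (the mixture, copper alone, arsenic alone, and a control) after 1, 2 and 4 days. The animals came from a field population, and all groups shared the culture conditions, with daily feeding in M4, a standard medium for Daphnia. The sources used here give neither doses nor the strain, age or number of animals behind a library. Nothing in the labels ties the 4 libraries of a group to 4 separate cultures. A p-value here therefore rests on the spread among libraries, and that spread may be technical.

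The genes were ranked by the values of day 2, after a filter on their level over all 48 libraries. For each gene, counts per 1000000 counts of the library (CPM) were put on the scale log2(CPM + 1), and a two-sample t with equal variance compared the 4 mixture libraries of day 2 with the 12 copper, arsenic and control libraries of that day. Of 16066 genes in the table, 10454 had a mean CPM from 5 to under 1000 and a median of 1 or more over the 48 libraries, and the 60 with the lowest t were kept. The t of the 60 ran from −6.51 to −4.037. The last gene inside the rule, Dapma7bEVm000510t1, had a t of −4.037 and a difference of −0.47 on the log2(CPM + 1) scale, and the first outside it, Dapma7bEVm027644t1, at rank 61, had a t of −4.034 and a difference of −1.38. On the opposite side, 56 genes had a t of at least the size of the last member's, with higher levels in the mixture. Because the rule used day 2, every difference on that day is given as a description, and tests were made on days 1 and 4.

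Copper is an essential metal, a cofactor of oxidases and of respiratory enzymes, and is toxic in excess. Arsenic is a metalloid without such a role, which as arsenite binds protein thiols. Small crustaceans such as Daphnia moult and produce broods in short repeated cycles, and many genes of the whole body, among them those of cuticle, digestion and yolk, follow those cycles. The identifiers of the table matched 0 entries of the RefSeq gene table of assembly ASM2063170v1.1, so the 60 genes are given by identifier only, without name, function, location or sequence, and no marker of a tissue could be checked. Members whose reads could be split with a close paralog or with a neighbour on the genome were not identifiable, so every single-gene value is uncertain in that respect. CPM is not corrected for transcript length, so levels are compared between libraries and not between genes.

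The library totals ran from 7933693 counts in mixture replicate 3 of day 2 to 20058325 counts in mixture replicate 4 of the same day. The other 2 mixture libraries of that day, replicates 1 and 2, had 13321824 and 9240514 counts. Control replicate 4 of day 1 had 479 genes without a count, against 36 to 285 genes in the other 47 libraries. Each of the 60 genes had counts in every one of the 48 libraries. Of the 60, 16 had a mean under 10 CPM, 37 a mean of 10 to 100 CPM and 7 a mean of 100 CPM or more. The median of their means was 24.2 CPM, against 33.3 CPM over the 10454 genes.

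On day 2 the 60 genes were lower in the mixture by a median of 0.90 on the log2(CPM + 1) scale, over a range of differences from −2.02 to −0.24, while the median of the 10454 genes was 0.04. In 23 of the 60 the difference was −1 or lower, and in 10 it was smaller than 0.5 in size. The mean of log2(CPM + 1) over the 60 genes was 3.49, 3.41, 4.04 and 3.97 in the mixture libraries of day 2. It was 4.83, 4.55, 4.398 and 4.38 with copper, 4.71, 4.77, 4.51 and 4.79 with arsenic and 4.68, 4.67, 4.83 and 4.78 in controls. All 4 mixture libraries lay below the 12 others, as the rule makes likely. The 60 genes together held 1555 ± 427 CPM in the mixture, 2652 ± 529.7 CPM with copper, 2975 ± 236 CPM with arsenic and 3169.6 ± 207 CPM in controls (SD, n = 4 each). In bulk libraries, fewer cells of a kind and less RNA per cell cannot be told apart.

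**Figure D1:**
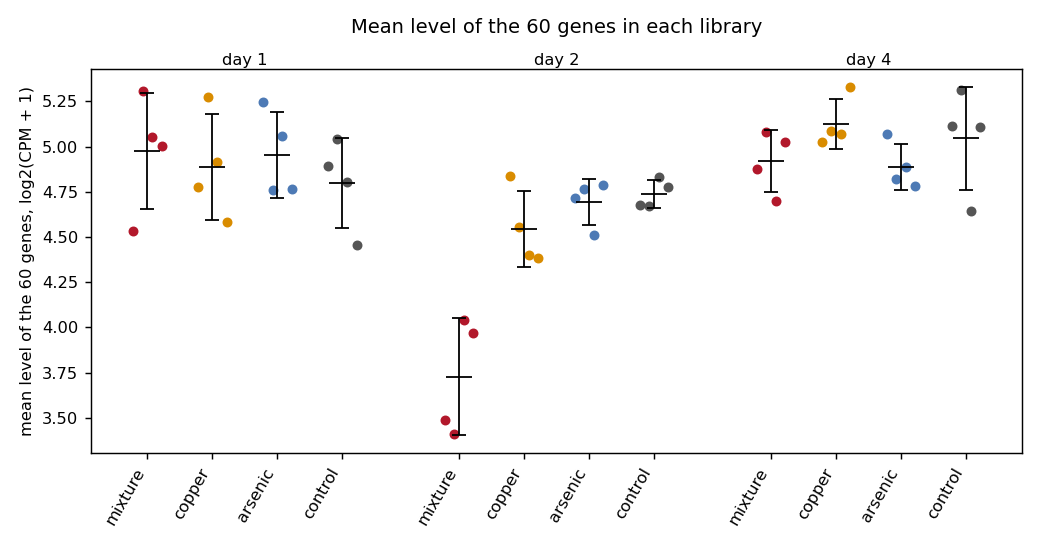
Mean of log2(CPM + 1) over the 60 genes in each library (points), with the mean and SD of each group of 4 (bars), for days 1, 2 and 4. The mixture libraries of day 2, on which the rule chose the genes as low, sit between 3.41 and 4.04. The other 44 libraries sit between 4.38 and 5.33.

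The 4 mixture libraries of day 2 were not alike. Replicates 1 and 2 stood below replicates 3 and 4 in 42 of the 60 genes, and above them in 2, whereas 18.1% of the 10454 genes had replicates 1 and 2 below. The share of the 10454 genes with replicates 1 and 2 above is not given here. Because the members varied together between libraries, the 42 are not separate observations. The 60 genes summed to 1189 and 1182 CPM in replicates 1 and 2 and to 1896 and 1951 CPM in replicates 3 and 4. The shallowest and the deepest library of the series were both in the higher pair. In 20 of the 60 genes all 4 mixture libraries lay below the 12 others of that day, which held for 0.249% of the 10454 genes, and in 53 they lay below the 4 controls, against 3.84% of the genes. These shares follow from the rule, and nothing is read from them. When the rule was applied without replicate 1, 2, 3 or 4 of the mixture, a choice made after seeing the data, 42, 36, 31 and 31 of its 60 genes were also in the set.

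On day 2 the median difference from control was −0.14 with copper, with 47 of 60 genes below 0 and a range from −0.89 to 0.25, against a median of −0.005 over the 10454 genes. Copper replicates 2, 3 and 4 had means over the 60 genes below the lowest control, and copper replicate 1 lay at the level of the highest control. With arsenic the median difference was −0.03, with 33 of 60 below 0, against 0.005 over the 10454 genes. The 60 genes varied together between libraries, and the rule used these libraries, so both counts below 0 are descriptions only. The mixture lay below copper, below arsenic and below control in 60 of 60 genes each, with medians of −0.82, −0.98 and −0.94 on the log2(CPM + 1) scale. In the fit across 15813 genes (edgeR's quasi-likelihood test, Benjamini-Hochberg adjusted p under 0.05), which also used these libraries, 10 of the 60 were called lower in the mixture than in control, where 0.139% of all genes were. Against arsenic 6 were called lower, with 0.0822% of all genes, and against copper 0 were (0.00632%). Against the mean of copper, arsenic and control 17 were called lower (0.259%). With the replicate number as a block, 9 of the 60 were called lower than in control, with 16 genes called in all (23 without the block). The last contrast then had 11 of the 60, with 19 genes called in all (46 without the block). The rule chose the genes on this contrast, so these counts are no test of it.

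The gene with the lowest t was Dapma7bEVm010547t1. On day 2 it had 1.65, 1.19, 1.39 and 3.34 CPM in the mixture, 5.75, 5.18, 3.28 and 3.64 CPM with copper, 6.26, 4.81, 6.097 and 6.54 CPM with arsenic and 6.602, 6.09, 4.84 and 5.76 CPM in controls. Mixture replicate 4 lay just above the lowest copper library, and the other 3 mixture libraries were below every other library of the day. On day 1 the same gene had 4.13, 10.03, 10.2 and 8.86 CPM in the mixture and 4.61, 6.597, 6.69 and 4.88 CPM in controls. On day 4 it had 4.87, 6.74, 4.302 and 7.71 CPM in the mixture and 9.87, 12.01, 3.88 and 8.42 CPM in controls. On days 1 and 4 the groups overlapped.

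Dapma7bEVm002234t1, at rank 2, had a small but even difference. Its day-2 levels were 31.7, 30.4, 31.01 and 33.7 CPM in the mixture, 36.1, 36.5, 36.1 and 34.7 CPM with copper, 39.1, 38.98, 38.8 and 40.2 CPM with arsenic and 36.9, 35.2, 38.4 and 40.3 CPM in controls. No mixture library reached the lowest of the others. On day 1 it averaged 43.7 ± 2.84 CPM in the mixture and 37.5 ± 7.43 CPM in controls, and on day 4 41.5 ± 1.64 CPM in the mixture and 43.2 ± 6.55 CPM in controls (SD, n = 4 each).

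Dapma7bEVm010190t1, at rank 3, had the largest difference of these 3 genes. It had 13.7, 13.3, 19.7 and 28.3 CPM in the mixture on day 2, 89.2, 71.7, 43.3 and 32.5 CPM with copper, 62.4, 67.999, 36.1 and 84.5 CPM with arsenic and 80.04, 104, 83.3 and 47.96 CPM in controls. All 4 mixture libraries were below the 12 others. Within the copper, arsenic and control groups its libraries spread widely.

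**Figure D2:**
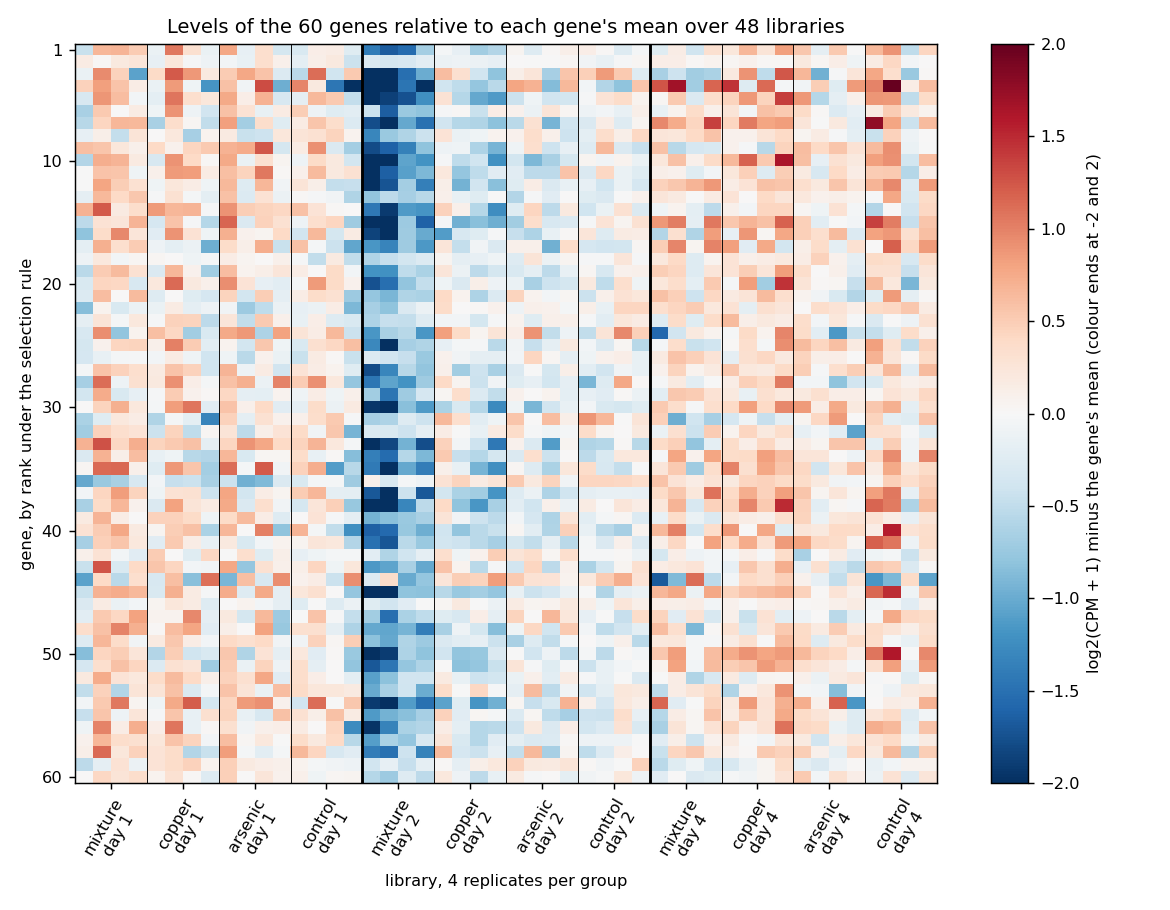
Level of each of the 60 genes (rows, by rank under the rule) in each of the 48 libraries (columns, grouped by treatment and day), as log2(CPM + 1) minus the gene's own mean. The 4 columns of the mixture on day 2, on which the rule chose the genes as low, are blue in nearly all rows. They are deepest in replicates 1 and 2, and no other group shows such a block.

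On day 1 the mean of log2(CPM + 1) over the 60 genes was 4.97 ± 0.32 in the mixture, 4.89 ± 0.29 with copper, 4.96 ± 0.24 with arsenic and 4.80 ± 0.25 in controls (SD, n = 4 each). The mixture was thus level with the other groups or above them. Against the controls of that day, 0 of the 60 were called in either direction by edgeR's quasi-likelihood test, where 0.0253% of 15813 genes were called. At an unadjusted p under 0.05, 1 of the 60 was lower (1.99% of all genes) and 2 were higher (1.95%), together 3 where 3.94% of all genes passed. The median fitted log2 fold change of the 60 was 0.20, against −0.004 over all genes, and 15 of the 60 were below 0, against 50.9% of all genes. Because the genes varied together between libraries, such counts are descriptions. The member with the lowest p, Dapma7bEVm005277t1, had 16.1, 29.4, 24.6 and 27.1 CPM in the mixture and 18.7, 18.1, 17.4 and 11.8 CPM in controls. Mixture replicate 1 lay within the controls and the other 3 above them (log2 fold change 0.54, SE 0.21, edgeR p 0.0118, adjusted p 1).

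The contrast of the rule, mixture against the mean of copper, arsenic and control, was repeated on day 1. Again 0 of the 60 were called (0.0253% of all genes were), with 1 lower and 2 higher at an unadjusted p under 0.05 (1.69% and 1.56% of all genes, 3.25% in all). The median was 0.09, with 22 of the 60 below 0 (49.3% of all genes). The lower limits of the 60 genes' 95% intervals had a median of −0.32, and the upper limits 0.56. In 59 of the 60 the gene's own 95% interval lay wholly above −1. In 57 it lay above the gene's own fitted difference of day 2, a value that the choice of genes makes too large in size. The shares over all genes are not given here, so both counts are descriptions. Dapma7bEVm001621t1 had the lowest p, with 20.9, 24.999, 33.3 and 27.3 CPM in the mixture on day 1, 16.4, 25.5, 28.6 and 13.7 CPM with copper, 17.6, 16.4, 29.1 and 9.17 CPM with arsenic and 20.5, 20.5, 14.2 and 10.3 CPM in controls. The mixture overlapped copper and arsenic and was above each control (log2 fold change 0.53, SE 0.21, edgeR p 0.0169, adjusted p 0.9999). On day 2 this gene averaged 7.11 ± 1.07 CPM in the mixture, 11.5 ± 2.93 CPM with copper, 18.3 ± 5.53 CPM with arsenic and 13.3 ± 1.99 CPM in controls (SD, n = 4 each).

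On day 4 the mean over the 60 genes was 4.92 ± 0.17 in the mixture, 5.13 ± 0.14 with copper, 4.89 ± 0.13 with arsenic and 5.04 ± 0.28 in controls, so that the mixture lay within the range of the other groups. Against control, 0 of the 60 were called by edgeR, where 0.0126% of all genes were, with 2 lower (1.88% of all genes) and 0 higher (1.59%) at an unadjusted p under 0.05, where 3.47% of all genes passed in all. The median log2 fold change was −0.12, against −0.01 over all genes, and 44 of the 60 were below 0, against 51.7% of all genes. The 60 genes varied together between libraries, so they are not 60 independent observations. Against the mean of the 3 other groups, 0 were called (0% of all genes), with 3 lower and 0 higher at an unadjusted p under 0.05 (2.19% of all genes each way, 4.38% in all). The median was −0.06, with 36 of the 60 below 0 (49.7% of all genes). The lower limits of the 60 genes' 95% intervals had a median of −0.54, and the upper limits 0.34. A gene's own interval lay wholly above −1 in 54 of the 60 and above the gene's own day-2 difference in 57. Against control alone the counts were 45 and 49, with the same day-2 difference. The choice of genes makes that difference too large in size, and its own error was not counted. The counts are therefore descriptions, and the shares over all genes are not given here.

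Dapma7bEVm010190t1, at rank 3 in the rule, was the member with the lowest p on day 4 in both contrasts. It had 36.3, 42.8, 35.2 and 36.8 CPM in the mixture, 66.4, 108, 40.03 and 138 CPM with copper, 91.5, 29.2, 56.8 and 68.5 CPM with arsenic and 99.4, 73.1, 33.9 and 58.8 CPM in controls. The 4 mixture libraries lay close together at the low end of the other groups, and 1 arsenic and 1 control library were lower than all of them. The log2 fold change against the 3 other groups was −0.90 (SE 0.34, 95% interval −1.59 to −0.21, edgeR p 0.0119, adjusted p 0.9993), and against control −0.82 (SE 0.40, edgeR p 0.0471, adjusted p 0.9999). On day 1 the same gene averaged 67.9 ± 36.5 CPM in the mixture and 72.9 ± 40.3 CPM in controls (SD, n = 4 each).

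**Figure D3:**
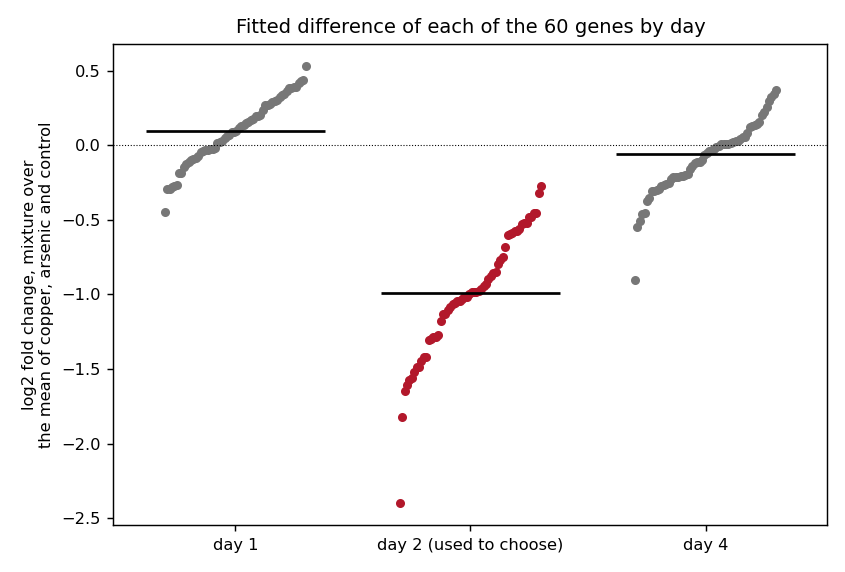
Fitted log2 fold change of the mixture over the mean of copper, arsenic and control for each of the 60 genes (points, sorted within a day), with the median of the 60 (line). The medians are 0.09 on day 1, −0.99 on day 2, the day used to choose the genes, and −0.06 on day 4.

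The mixture effect on day 4 was set against that on day 1 in 1 contrast. EdgeR called 0 of the 60 and 0% of all genes. At an unadjusted p under 0.05, 5 of the 60 were lower and 1 was higher, against 1.92% and 1.9% of all genes. The median difference was −0.38 (all genes −0.01), and 49 of the 60 were below 0, against 50.8% of all genes. Because the genes varied together between libraries, these counts do not rest on 60 independent observations and are descriptions. The lowest p belonged to Dapma7bEVm005277t1 again (−0.70, SE 0.29, edgeR p 0.0208, adjusted p 1). Its day-4 levels were 22.1, 20.9, 18.3 and 20.7 CPM in the mixture and 18.1, 32.4, 14.8 and 24.4 CPM in controls, where the controls enclosed the mixture.

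The single metals were then compared with control on days 1 and 4, which the t of the rule did not use. With copper, 0 of the 60 were called on day 1 or on day 4, where edgeR called 0% and 0.0696% of all genes (on day 4, 0.0506% lower and 0.019% higher). At an unadjusted p under 0.05, 1 was lower and 1 higher on day 1 (2.3% and 2.61% of all genes, 4.91% in all). On day 4 it was 0 in either direction (1.69% and 1.44%, 3.13% in all). The medians were 0.13 on day 1, with 20 of the 60 below 0 (52.1% of all genes), and 0.08 on day 4, with 22 below 0 (50.6%). Dapma7bEVm023319t1, one of the members with the fewest reads, had the lowest p on day 1, at 2.87, 4.69, 4.12 and 1.35 CPM with copper and 5.32, 6.51, 7.39 and 4.797 CPM in controls. All 4 copper libraries were below the controls (log2 fold change −0.90, SE 0.33, edgeR p 0.00922, adjusted p 0.881). On day 4 its copper libraries had 3.62, 4.54, 3.26 and 4.18 CPM against 7.02, 4.11, 3.97 and 7.67 CPM in controls, with overlap.

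On day 4, Dapma7bEVm006103t1 had the lowest p with copper, at 4.83, 7.05, 6.604 and 7.45 CPM against 1.71, 2.27, 6.92 and 1.92 CPM in controls (log2 fold change 1.05, SE 0.54, edgeR p 0.0568, adjusted p 1). Control replicate 3 lay among the copper libraries, and the other 3 controls were below all of them.

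With arsenic, 0 of the 60 were called on day 1 or day 4 (0.0126% and 0.0632% of all genes). On day 1 the median was 0.18 with 13 of the 60 below 0 (50.1% of all genes), and 1 was lower and 0 higher at an unadjusted p under 0.05 (2.99% and 2.89% of all genes, 5.88% in all). On day 4 the median was −0.24 with 49 of the 60 below 0 (49.4% of all genes), and 6 were lower and 0 higher at an unadjusted p under 0.05 (4.94% and 3.24% of all genes, 8.18% in all). Because the genes varied together between libraries, the counts with either metal are descriptions. Dapma7bEVm000335t1 had the lowest p on day 4, with 17.8, 14.9, 17.3 and 12.8 CPM against 53.7, 26.6, 10.8 and 23.8 CPM in controls. The controls spread widely and enclosed the arsenic libraries (log2 fold change −0.94, SE 0.35, edgeR p 0.00982, adjusted p 0.584). Mixture libraries of that day were at 30.1, 25.7, 20.5 and 40.3 CPM.

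The level of the 60 genes was followed over the days within each treatment. On day 2 the mean of log2(CPM + 1) over the 60 genes was 3.73 ± 0.32 in the mixture, 4.54 ± 0.21 with copper, 4.69 ± 0.13 with arsenic and 4.74 ± 0.08 in controls (SD, n = 4 each). The mixture of day 2 had the lowest group mean of the 12 for 55 of the 60 genes, as the rule makes likely. Copper on day 4 had the highest for 18, the mixture on day 1 for 10 and control on day 4 for 9. The shares over the 10454 genes are not given here, so nothing is read from these counts. Between days 1 and 2 the median change was −1.27 in the mixture, −0.40 with copper, −0.29 with arsenic and −0.04 in controls, and between days 2 and 4 it was 1.12, 0.49, 0.22 and 0.31. Day 2 entered the rule, so these changes are descriptions, and over the 10454 genes the medians lay between −0.10 and 0.02.

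The t of the rule used neither day 4 nor day 1, so these were compared within a treatment. In the mixture 3 of the 60 were called higher and 0 lower by edgeR, where 3.64% of all genes were called higher and 2.39% lower. In controls 7 of the 60 were called higher and 0 lower, where 4.54% and 4.46% were. At an unadjusted p under 0.05, 20 of the 60 were higher in controls and 0 lower (12.6% and 14.1% of all genes), and 5 and 4 in the mixture (10.2% and 11.3%). Medians were 0.06 in the mixture and 0.34 in controls, against −0.02 and −0.002 over all genes. The count in controls changed when single libraries were left out. It was 0 without control replicate 4 of day 1 or replicate 2 of day 4. It was 4 without replicate 2 of day 1 or replicate 1 or 4 of day 4, and 15 without replicate 3 of day 4. In the mixture it was 1 without replicate 1 of day 1 and 5 without replicate 2 of day 1. The share of all genes called in the same refits is not given here, so these changes are not read as particular to the 60.

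Dapma7bEVm000091t1 rose in the mixture between days 1 and 4. It had 46.96, 37.95, 34.6 and 38.3 CPM on day 4 and 14.8, 18.2, 19.5 and 24.7 CPM on day 1 in the mixture, without overlap (log2 fold change 1.13, SE 0.18, edgeR adjusted p 3.00e-05). In controls it had 32.4, 43.9, 39.6 and 43.2 CPM on day 4 and 25.1, 30.4, 30.4 and 18.6 CPM on day 1, also without overlap (0.70, SE 0.17, edgeR adjusted p 0.01). It was already higher on day 2, at 33.6, 24.8, 30.4 and 28.9 CPM in the mixture and 42.3, 42.4, 41.9 and 40.1 CPM in controls. It was the 1 member of the 60 whose mixture mean was higher on day 2 than on day 1. On day 1 it was also the member with the lowest p for arsenic, at 22.9, 15.6, 16.4 and 25.3 CPM with arsenic (log2 fold change against control −0.37, SE 0.18, edgeR p 0.0429, adjusted p 0.83).

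Dapma7bEVm014964t1 was the other named rise in the mixture, with 121, 130.5, 138 and 112 CPM on day 4 and 52.8, 101, 77.7 and 88.5 CPM on day 1. By edgeR its log2 fold change was 0.74 (SE 0.19, adjusted p 0.0147). Every library of day 4 was above every library of day 1. Without mixture replicate 1 of day 1 the adjusted p was 0.114.

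The 3 genes called in the mixture, Dapma7bEVm000091t1, Dapma7bEVm014964t1 and Dapma7bEVm028814t1, were also among the 7 called in controls. Dapma7bEVm028814t1, outside the rule for named genes and given to complete the 3, had fitted log2 fold changes of 0.65 in the mixture and 0.63 in controls (edgeR adjusted p 0.0148 and 0.0195). No test of the difference between the treatments passed for any of the 60.

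In controls the largest called rise was that of Dapma7bEVm002040t1, at 118, 171, 55.5 and 110.3 CPM on day 4 and 64.6, 47.4, 57.03 and 32.9 CPM on day 1. By edgeR its log2 fold change was 1.27 (SE 0.32, adjusted p 0.012). Control replicate 3 of day 4 lay among the day-1 libraries. Dapma7bEVm003459t1 had 36.1, 43.98, 18.1 and 40.8 CPM on day 4 and 26.5, 24.1, 15.7 and 15.9 CPM on day 1 (0.86, SE 0.28, edgeR adjusted p 0.0446), and again replicate 3 of day 4 was the low one. The call for Dapma7bEVm003459t1 was lost in 8 of 14 alternatives and that for Dapma7bEVm002040t1 in 2 of 14 (edgeR adjusted p up to 0.228 and 0.1).

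The 60 genes varied together from library to library on days 1 and 4, which entered the choice through the filter on level but not through the t. After the mean of each group was subtracted, Pearson's r between 2 members over the 32 libraries of days 1 and 4 had a median of 0.35 (quartiles 0.18 and 0.54 over 1770 pairs), and 88.8% of the pairs were above 0. Over all pairs of the 10454 genes the median was 0.03 (quartiles −0.23 and 0.28), with 52.7% above 0. Positive and negative pairs offset each other in that median, whereas the rule chose the 60 in 1 direction. The first principal component of the scaled deviations held 40.6% of the variance for the 60 and 30.7% for all genes. Within treatments these shares were 46.6% and 36.0% (mixture), 46.2% and 32.3% (copper), 42.0% and 39.3% (arsenic) and 45.5% and 43.1% (controls). Variation shared between libraries was thus not confined to the 60. On day 1 alone (16 libraries) the medians were 0.45 for the 60 and 0.02 for all genes, and on day 4 alone (16 libraries) 0.27 and 0.04. Within a treatment (8 libraries each) the median of the 60 was 0.43 in the mixture, 0.44 with copper, 0.33 with arsenic and 0.39 in controls, against 0.03 to 0.04 for all genes. The pairs share libraries, depth and scaling, so r is a description. Without control replicate 4 of day 1, the library with many genes at 0, the median of the 60 was 0.35 and that of all genes 0.03.

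**Figure D4:**
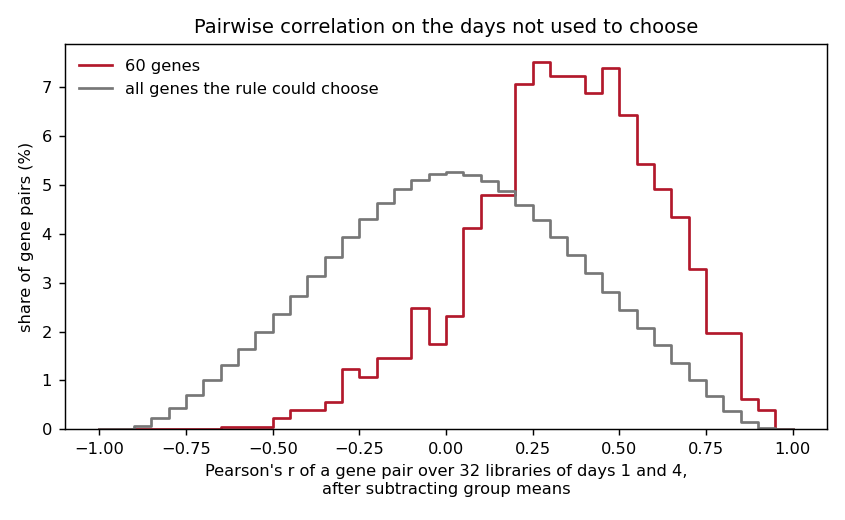
Share of gene pairs by Pearson's r over the 32 libraries of days 1 and 4 after group means were subtracted, for the 60 genes (red) and for all 10454 genes the rule could choose (grey). The median is 0.35 for the 60 genes and 0.03 for all genes.

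The spread of the 60 genes within groups was also wide on those days. The SD within groups on the log2(CPM + 1) scale had a median of 0.40 over the 60 (quartiles 0.29 and 0.48), against 0.24 over the 10454 genes (quartiles 0.17 and 0.32). Single libraries in which the set stood low were found in every treatment. In mixture replicate 1 of day 1, 56 of the 60 genes were below their group mean, where 42.3% of the 10454 genes were. In control replicate 3 of day 4 it was 52 of the 60 (41.5% of all genes), and in copper replicate 4 of day 1 it was 54 (56.8%). Control replicate 4 of day 1 had 48 below (44.9%), and arsenic replicate 2 of day 1 had 47 (43.4%). The set stood high in copper replicate 2 of day 1, where 4 of the 60 were below the group mean (54.6% of all genes), and in arsenic replicate 1 of day 1, where 5 were (52.4%). The means of the 60 genes in the mixture on day 1 were 4.53, 5.31, 5.05 and 5.004, and in controls of day 4 they were 5.11, 5.31, 4.64 and 5.11. The lowest libraries of days 1 and 4, at 4.45 and 4.64, remained above the highest mixture library of day 2, at 4.04. The rule chose the genes for low values in the mixture libraries of day 2, so nothing is read from that gap.

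Not every member took part. The mean r of a member with the other 59 was above 0.3 in 40 of the 60 and above 0 in 58. It was 0.51 for Dapma7bEVm010547t1 and for Dapma7bEVm000751t1, and 0.21 for Dapma7bEVm000091t1. The lowest were Dapma7bEVm006103t1 at −0.20 and Dapma7bEVm009032t1 at −0.04. Dapma7bEVm006103t1 was low in the mixture on day 2, at 4.05, 6.82, 2.02 and 2.54 CPM against 6.04, 7.62, 9.07 and 6.32 CPM in controls, with overlap, but its highest mixture library there was replicate 2, in which 30 of the 60 genes were lowest. On day 4 it had 0.905, 2.29, 12.2 and 3.21 CPM in the mixture and 1.71, 2.27, 6.92 and 1.92 CPM in controls, and its highest control was replicate 3, in which 52 of the 60 genes were below the group mean. Dapma7bEVm009032t1 had 7.96, 5.84, 6.93 and 8.18 CPM in the mixture on day 2, 12.1, 8.84, 10.05 and 13.7 CPM with copper, 11.4, 12.2, 9.73 and 12.2 CPM with arsenic and 9.22, 9.202, 9.52 and 8.55 CPM in controls. All 4 mixture libraries were below the 12 others by a small margin.

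The values of the 2 members with the most reads are given as a description, since the rule chose them as low in the mixture on day 2. Dapma7bEVm000751t1 had 84.3, 54.5, 228 and 225 CPM in the mixture on day 2, 270.1, 238, 249 and 232 CPM with copper, 359, 296, 314 and 368 CPM with arsenic and 396, 261, 353 and 367 CPM in controls. Its mixture libraries split into a lower and a higher pair, and none reached the lowest of the others. On day 4 it had 633, 682, 366 and 685 CPM in the mixture and 887, 1104, 375 and 579.8 CPM in controls, with 1 low library in each group. Dapma7bEVm024404t1 had 69.96, 93.5, 164 and 283 CPM in the mixture on day 2, 540.1, 233, 182 and 262 CPM with copper, 353, 309, 438 and 375 CPM with arsenic and 458, 410.0, 484 and 451 CPM in controls. Its copper libraries overlapped the mixture, and the arsenic and control libraries did not. On day 4 it had 476, 657, 328 and 565 CPM in the mixture and 912, 843, 267 and 635 CPM in controls.

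**Figure D5:**
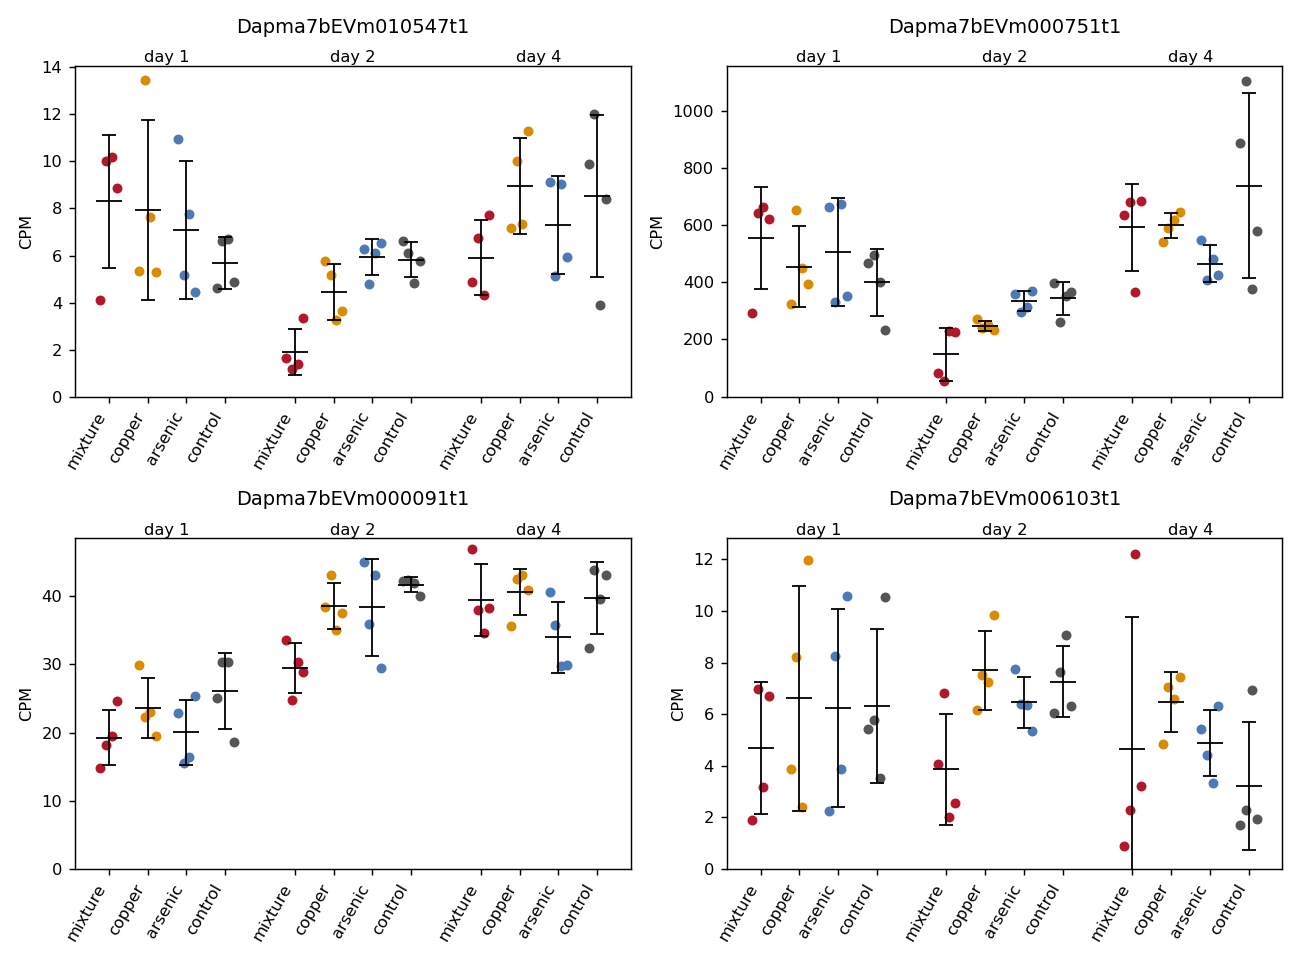
CPM of 4 of the 60 genes in each library (points), with the mean and SD of each group of 4 (bars, cut at 0), by day and treatment. Dapma7bEVm010547t1 and Dapma7bEVm000751t1 are lowest in the mixture on day 2, Dapma7bEVm000091t1 rises between days 1 and 4 in the mixture and in controls, and Dapma7bEVm006103t1 spreads widely within groups.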

How the data were processed

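Whole-body RNA of Daphnia magna was measured in 48 libraries, 4 for each of 12 groups. The submitters' processing notes name TopHat2 2.1.1, HTSeq and edgeR without role or order. Neither build nor annotation nor strand setting is given in the sources used here. The authors deposited 1 table of counts per gene and library. It is named as normalised, but the deposited counts are whole numbers and the library totals differ. A score of unevenness among low values was at most 1.74 as deposited and at least 4.65 after multiplying by 0.9 and rounding. Each of the 16066 genes exceeded 1 CPM in 3 or more libraries, and genes weaker than that were not analysed here.

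Genes with at least 14 counts in at least 4 libraries were tested (15813, all 60 members among them, 253 left out). EdgeR 4.0.16 in R 4.3.3 was used with TMM scaling (factors 0.913 to 1.09), 1 model of the 12 groups over 48 libraries and the two-sided quasi-likelihood F test. P-values were adjusted by Benjamini-Hochberg over all genes of a comparison, with the threshold for a call at 0.05. Levels are CPM without TMM scaling, and fold changes are fitted, with 95% intervals from the same model. The steps were tested on simulated data. Libraries of a group differed by more than sampling noise in all 72 pairs (lowest chi-square 9.32 per degree of freedom). The members, the comparisons and the rule for named genes were chosen with earlier results of these data known. Named by that rule were the 3 lowest t, the last inside and the first outside the rule, the 2 members each with the most and the fewest reads, the 2 least correlated with the rest, and in each comparison the 2 that rose or fell most among those called, or else the member with the lowest p. Lists by gene name could not be applied.

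Alternatives were no filter, median-ratio size factors, DESeq2 1.42.0, limma 3.58.1 on log2(CPM + 1), the libraries of the days compared alone, the replicate number as a block, leaving out each library, and other choices of members. Samples with the same replicate number deviated together with every r over 0.1 in mixture and control on day 2 (r 0.161 to 0.307) and in mixture and copper on day 1, that is, in 2 of 18 pairs of groups within a day. The day-1 pair is part of the contrast of mixture against the other 3 groups, in which the other pairs of groups did not meet that limit.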

Additional observations from a re-analysis of the deposited data

Results flagged for a closer look

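A library was set apart when its gap to the nearest of the other 3 of its group, relative to the range of the group, exceeded Dixon's 95% critical value. About 1 group in 20 passes that value by chance. For the mean of the 60 genes and the 16 members that the rule for named genes gives, 204 groups were examined and 5 libraries were set apart, fewer than the 10.2 that chance gives. Dapma7bEVm000751t1 was lowest in mixture replicate 1 of day 1 at 290.8 CPM, against 622 to 663 CPM in the other 3, and lowest in mixture replicate 3 of day 4 at 366.3 CPM, against 633 to 685 CPM. Dapma7bEVm006103t1 was highest in control replicate 3 of day 4 at 6.92 CPM, against 1.71 to 2.27 CPM. Dapma7bEVm002234t1 was highest in arsenic replicate 4 of day 2 at 40.2 CPM, against 38.8 to 39.1 CPM. Dapma7bEVm014964t1 was lowest in copper replicate 2 of day 4 at 83.7 CPM, against 114 to 119.8 CPM. Causes were not tested.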

How the results depend on the processing

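For the 9 comparisons in which 0 of the 60 genes were called, 0 were called in all 177 alternatives, DESeq2 and limma included. The number called between day 1 and day 4 in controls, 7 of 60, was 4 with limma and 4 with the replicate block. It was 3 for members chosen on TMM-scaled CPM (46 of them shared), 4 of the first 30 and 16 of the first 120 genes. It ran from 0 to 15 when single libraries were left out. In the mixture, 3 of 60 became 5 with limma and 8 of 120, and ran from 1 to 5 without single libraries. The other lists of members used the main fit. There, 9% of all genes were called in controls and 6.03% in the mixture, in either direction. For the refits the share of all genes is not set beside the count, so nothing about the 60 is read from those shifts. The median day-2 difference of −0.90 was −0.996 with a pseudocount of 0.1 and −0.64 with 5, and stayed within the SD between mixture libraries in all 18 alternatives (−1.01 to −0.64). The cause of these shifts was not tested, apart from fewer or more genes in the lists. Replicate numbers paired mixture with copper on day 1, but not all groups of any contrast tested: same-numbered libraries within a day correlated from −0.55 to 0.43 over 72 pairs. In the 10 other comparisons of days 1 and 4 the count was the same with the replicate block. Depth limits the members with few reads: 3 counts are 0.15 CPM in the deepest and 0.378 CPM in the shallowest library, for counting error only.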
